A study of Mus musculus with 4 samples.

Results

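The hair bundle and synapse deafness genes examined here are 9 mouse genes, listed by symbol and Ensembl gene ID: Cdh23, Pcdh15, Ush1c, Tmc1, Myo7a, Myo6, Myo15, Espn and Otof. All 9 were found among the 23879 genes of the table, and none had to be skipped. The genes were measured on microarrays in cochleae of mouse embryos at embryonic day 15, with 2 arrays of N-myc ko cochleae and 2 of wild-type cochleae. N-myc, encoded by Mycn, belongs to the MYC transcription factors. All 4 samples carry the same strain label, 129/Sv and CD-1, and embryos were assigned to a genotype by PCR. The sources used here do not give how the N-myc allele was made, whether a Cre driver limited its loss to some cells, or how many embryos went into a sample. The replicates are labelled biological. The p-values reflect only the spread between these samples, and for each gene they also draw on the spread of other genes.

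Hair cells turn sound into electrical signals through the hair bundle, a staircase of actin-filled stereocilia on their apical surface. Neighbouring stereocilia are joined by tip links, which pull open mechanically gated channels when the bundle is deflected, and the receptor potential then drives transmitter release at ribbon synapses onto spiral ganglion neurons. Mutations in each of these 9 genes cause deafness in people, in mice or in both, and several of them underlie Usher syndrome, in which deafness and retinal degeneration occur together. At this embryonic age hair cells are only beginning to differentiate in the mouse cochlea.

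Of the 9 genes, 3 passed the test, all lower in N-myc ko cochleae: Cdh23, Pcdh15 and, less firmly, Ush1c. Cdh23 and Pcdh15, which encode the cadherins that form the upper and the lower part of the tip link, fell to 65.4% and 59.7% of the wild-type level. Ush1c, which encodes harmonin, the scaffold that anchors the upper end of the tip link, fell to 79.4%, with a call that was lost under several other settings. Tmc1, Myo7a, Myo6, Myo15, Espn and Otof did not pass, with changes between -0.19 and 0.20 on the log2 scale. Called genes are those with a limma adjusted p no higher than 0.14, which follows the limit of 14% in the study's design text. By this rule 3 of the 9 genes were called, all of them lower, against a background of 34.7% of all genes called, 14.9% higher and 19.8% lower. The balance of directions over all genes depended on the scaling, with 3561 genes higher and 4719 lower as deposited, 4687 and 3566 after centring each array on its median, 2402 and 2414 after quantile normalisation, and 2646 and 2316 after cyclic loess. The share of members called, 3 of 9, is near that background and is not a result about the list. At an adjusted p under 0.05, 2 of the 9 were called, Cdh23 and Pcdh15, against 15% of all genes. The median log2 change was -0.087 over the 9 genes and -0.030 over all genes. After quantile normalisation these medians were -0.020 and -0.0092, and after cyclic loess -0.013 and -0.0013.

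The values are the authors' RMA expression values on the log2 scale, 1 per gene. They carry no detection call for any gene, so whether a transcript was above background cannot be told. Of all genes, 44.9% were dimmer in mean value than Cdh23, 48.3% than Pcdh15, 56.7% than Ush1c and 53.3% than Myo7a. The shares were 34.4% for Myo15, 47.4% for Espn and 45.2% for Otof. A value depends on the probes of a gene as well as on its transcript, so values are compared between arrays for the same gene and not between genes. Array medians lay at 7.48 and 7.49 in N-myc ko and at 7.52 and 7.56 in wild-type cochleae, and Pearson's r across genes was 0.995 within each group and 0.983 to 0.987 between groups. Over the table, genes with a mean value from 4.5 to 7 tended to be higher in the N-myc ko arrays, and those from 7.5 to 12 lower. Beyond these ranges the median change was -0.067 from 3.5 to 4, -0.0075 from 4 to 4.5 and 0.0032 from 12 to 12.5. For this reason each member is also set beside the 500 genes nearest to it in mean log2 value over the 4 arrays, as a description. The table pairs no Ensembl ID with a symbol, and the lists of other hair bundle, synapse and transcription factor genes, and of markers of supporting cells, neurons, glia, mesenchyme, blood and melanocytes, were not analysed here. Nor was Mycn, the targeted gene. The identity of the tissue was therefore not checked against markers. In a tissue sample of many cell types, fewer cells of a type and less RNA per cell cannot be told apart. The part of cell make-up in the differences below was not tested.

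**Figure D1:**
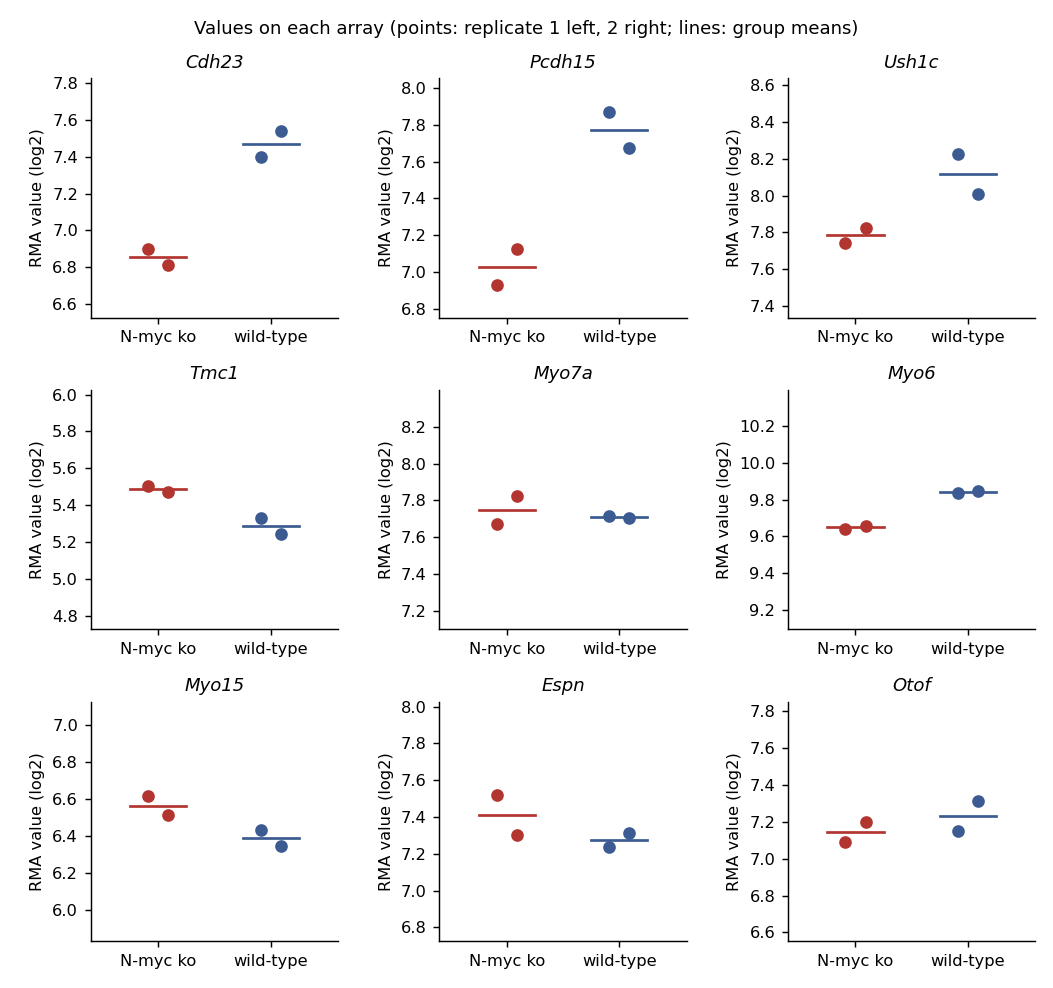
RMA value (log2, vertical axis) of each gene on each array, with N-myc ko arrays at the left and wild-type arrays at the right of each panel; points are arrays, lines are group means (n = 2), and every panel spans the same log2 range. Cdh23, Pcdh15 and Ush1c are lower on both N-myc ko arrays, while Myo7a, Espn and Otof have overlapping groups. Myo6, which was not called, is also lower on both N-myc ko arrays, and Tmc1 and Myo15, not called either, are higher on both.

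Among the genes of the tip link and its scaffold, Cdh23 (ENSMUSG00000012819) had log2 values of 6.90 and 6.81 on the N-myc ko arrays, against 7.40 and 7.54 on the wild-type arrays. Both N-myc ko arrays were below both wild-type arrays, and the smallest of the 4 differences between an N-myc ko and a wild-type array was -0.50. The group means were 6.86 ± 0.060 in N-myc ko and 7.47 ± 0.098 in wild-type cochleae (SD, n = 2 each). The log2 change was -0.61 (SE 0.099, 95% interval -0.85 to -0.37, limma adjusted p = 0.0213), a 1.53-fold lower level. The gap between replicates was 0.085 in N-myc ko and 0.14 in wild-type cochleae, so the difference between the groups was several times the spread within them. Falls at least as deep were seen for 2.50% of all genes. The 500 genes nearest in mean value had a median change of 0.013, and the change of Cdh23 minus that median was -0.63.

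Pcdh15 (ENSMUSG00000052613) had log2 values of 6.93 and 7.13 in N-myc ko, against 7.87 and 7.67 in wild-type cochleae. The groups were again apart, and the replicates of each group differed by about as much, 0.19 in N-myc ko and 0.20 in wild-type. The means were 7.03 ± 0.14 in N-myc ko and 7.77 ± 0.14 in wild-type cochleae (SD, n = 2 each). The log2 change of -0.74 was the deepest among the 9 genes (SE 0.12, 95% interval -1.03 to -0.46, limma adjusted p = 0.0207), a 1.67-fold lower level. A fall of this depth or deeper was seen for 1.28% of all genes. The 500 genes nearest in mean value had a median change of -0.022, which leaves a difference of -0.72 for Pcdh15. The intervals of Cdh23 and Pcdh15 overlapped widely, and whether one fell more than the other was not tested.

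Over the 4 arrays, once the mean of each gene was subtracted, each of Cdh23 and Pcdh15 had the other as its nearest member. Their Euclidean distance of 0.34 log2 units was the largest nearest distance among the 9 genes, the others lying between 0.052 and 0.22. As theirs were the deepest falls among the 9 genes, this pairing adds nothing beyond those changes. Within both groups, however, the array with the higher Cdh23 value had the lower Pcdh15 value. Their upstream sequences are shown because these genes fell together. RefSeq promoter windows (GRCm38.p6) were at hand for 8 of the 9 genes, all but Otof, with 11 windows in all. The 250 bases before the annotated start are given here 5′ to 3′ on the strand of the gene, with every match to CANNTG in capitals. CANNTG is the core of the E-box, the element bound by basic helix-loop-helix factors, which include both the MYC family and the hair cell factor ATOH1. The Cdh23 window lies at chr10:60696491-60696740 on the minus strand, and the Pcdh15 window at chr10:73821617-73821866 on the plus strand. The Pcdh15 window belongs to a start inside the span that RefSeq gives the gene, and other starts of Pcdh15 were not analysed here.

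Cdh23: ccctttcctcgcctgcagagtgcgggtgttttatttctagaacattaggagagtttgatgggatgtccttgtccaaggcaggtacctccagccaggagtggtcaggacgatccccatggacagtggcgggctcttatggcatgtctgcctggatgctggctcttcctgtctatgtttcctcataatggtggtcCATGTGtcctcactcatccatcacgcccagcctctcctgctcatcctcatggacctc

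Pcdh15: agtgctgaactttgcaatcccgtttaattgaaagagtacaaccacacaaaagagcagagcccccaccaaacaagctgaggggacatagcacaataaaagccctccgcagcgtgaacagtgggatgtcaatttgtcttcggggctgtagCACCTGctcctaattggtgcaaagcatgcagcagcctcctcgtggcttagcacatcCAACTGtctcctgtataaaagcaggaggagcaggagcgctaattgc

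The Cdh23 window holds 1 CANNTG match, CATGTG, and the Pcdh15 window holds 2, CACCTG and CAACTG. Such a match was present in 66.2% of the 32851 windows of this length in the table, so its presence in these windows is common. Among the other members, the number of CANNTG matches was 1 for Ush1c, 1 for Tmc1, 2 for Myo15 and 0 for Myo6. It was 1, 0 and 3 in the Espn windows, and 0 and 2 in the Myo7a windows. The motif CACGTG, the E-box form that MYC and MAX bind most tightly, was found in 6.02% of all windows and in 0 of the 11 windows of the members. Both motifs read the same on either strand, and every CACGTG is also a CANNTG. A missing match says only that these letters are not in this window.

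Ush1c (ENSMUSG00000030838) had log2 values of 7.74 and 7.83 in N-myc ko, against 8.23 and 8.01 in wild-type cochleae. The groups did not overlap, but the wild-type arrays differed from each other by 0.22. The means were 7.79 ± 0.058 in N-myc ko and 8.12 ± 0.16 in wild-type cochleae (SD, n = 2 each), and the log2 change was -0.33 (SE 0.11, 95% interval -0.60 to -0.066, limma adjusted p = 0.0869), a 1.26-fold lower level. A fall of this depth or deeper was seen for 14.3% of all genes. The 500 genes nearest in mean value had a median change of -0.16, with 32.0% of them called lower, and the change of Ush1c minus their median was -0.18. After quantile normalisation of the 4 arrays the change was -0.21 and was no longer called (limma adjusted p = 0.295). The call was also lost without wild-type replicate 1 (log2 change -0.22, limma adjusted p = 0.296), without N-myc ko replicate 1 (-0.29, limma adjusted p = 0.288) and without N-myc ko replicate 2 (-0.37, limma adjusted p = 0.145).

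Tmc1 (ENSMUSG00000024749) encodes the pore-forming subunit of the mechanotransduction channel, to which the lower end of the tip link is coupled. Its log2 values were 5.50 and 5.47 in N-myc ko, against 5.33 and 5.25 in wild-type cochleae. These are low values, with only 17.9% of the genes on the arrays dimmer in mean value, and the table gives no detection call that would show whether the transcript was above background. Both N-myc ko arrays were higher, and the change of 0.20 had a 95% interval from -0.023 to 0.42 (SE 0.092, limma adjusted p = 0.177), so it was not called. The 500 genes of nearest mean value had a median change of 0.16, and Tmc1 differed from that by 0.041. When each array was centred on its median the change was 0.25 and Tmc1 was called higher (limma adjusted p = 0.115), whereas after quantile normalisation it was 0.040 and not called (limma adjusted p = 0.814).

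**Figure D2:**
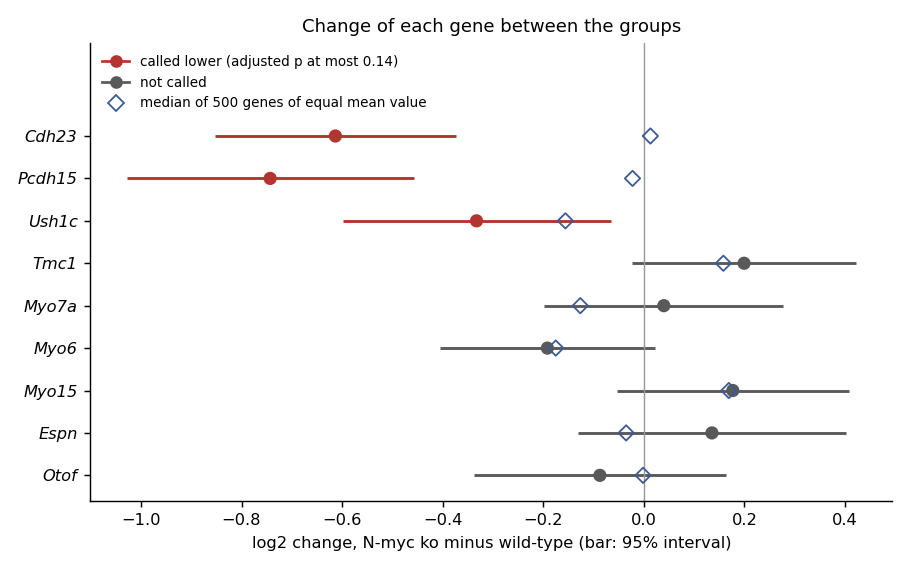
Log2 change (N-myc ko minus wild-type, horizontal axis) of each gene with its 95% interval from limma, in red for called genes; open diamonds give the median change of the 500 genes nearest in mean value. The intervals of Cdh23 and Pcdh15 lie wholly below the diamonds, and those of the other 7 genes contain them.

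The myosin motors showed no common direction. Myo7a (ENSMUSG00000030761) encodes the motor that works with harmonin at the upper tip link attachment, and had log2 values of 7.67 and 7.83 in N-myc ko, against 7.71 and 7.71 in wild-type cochleae. The N-myc ko values lay on either side of the wild-type values. The change was 0.040 (SE 0.098, 95% interval -0.20 to 0.28, limma adjusted p = 0.801), and the interval does not reach the change of Cdh23 or Pcdh15. Whether the change of Myo7a differs from theirs was not tested. The nearest 500 genes in mean value had a median of -0.13, with 29.0% of them called lower and 12.6% called higher. The change of Myo7a minus that median was 0.17.

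Myo6 (ENSMUSG00000033577) encodes a motor that moves toward the minus end of actin filaments and helps to anchor stereocilia at their base. Its values lay in the bright range of the table, with 85.3% of genes dimmer in mean value. Its log2 values were 9.64 and 9.66 in N-myc ko, against 9.83 and 9.85 in wild-type cochleae. The replicates differed by only 0.016 in either group, and the N-myc ko arrays were the lower ones. The change of -0.19 was not called (95% interval -0.41 to 0.022, limma adjusted p = 0.177), with an SE of 0.089 that in limma also draws on the spread of other genes. Genes of this mean value had a median change of -0.18, so Myo6 differed from its neighbours by -0.017. After quantile normalisation its change was -0.020, with a limma adjusted p of 0.90.

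Myo15 (ENSMUSG00000042678) encodes the motor that carries the elongation complex to the tips of stereocilia. It had log2 values of 6.61 and 6.51 in N-myc ko, against 6.43 and 6.34 in wild-type cochleae. The N-myc ko arrays were the higher ones, and the change of 0.18 was not called (SE 0.096, 95% interval -0.054 to 0.41, limma adjusted p = 0.238). The neighbours in mean value had a median change of 0.17, and 35.8% of them were called higher. Myo15 differed from that median by 0.0079. Over the 4 arrays the profile of Myo15 was closest to that of Tmc1, at a Euclidean distance of 0.052 log2 units. Both are genes in the range of mean values where the table as a whole was higher in N-myc ko cochleae.

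Espn (ENSMUSG00000028943) encodes espin, which bundles the actin filaments of stereocilia. Its log2 values were 7.52 and 7.30 in N-myc ko, against 7.23 and 7.31 in wild-type cochleae. N-myc ko replicate 1 stood above the other 3 arrays, and N-myc ko replicate 2 lay between the wild-type arrays. The change of 0.14 was not called (SE 0.11, 95% interval -0.13 to 0.40, limma adjusted p = 0.416), and without N-myc ko replicate 1 it was 0.026. The nearest 500 genes in mean value had a median change of -0.035, and the change of Espn minus that median was 0.17.

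Otof (ENSMUSG00000062372), the synaptic member, encodes otoferlin, the calcium sensor for vesicle release at the ribbon synapse of inner hair cells. It had log2 values of 7.09 and 7.20 in N-myc ko, against 7.15 and 7.31 in wild-type cochleae. The groups overlapped, and the change of -0.087 was not called (SE 0.10, 95% interval -0.34 to 0.16, limma adjusted p = 0.582). Its neighbours in mean value had a median change of -0.0016, and the change of Otof minus that median was -0.086. The lower end of the interval, -0.34, is closer to 0 than the change measured for Cdh23 or Pcdh15. Whether the change of Otof differs from theirs was not tested.

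**Figure D3:**
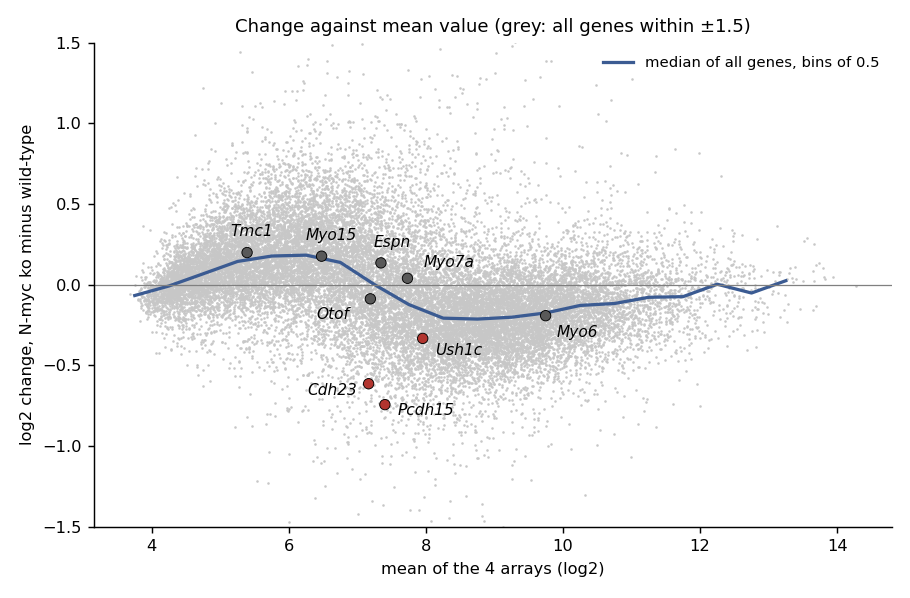
Log2 change (N-myc ko minus wild-type, vertical axis) against the mean log2 value over the 4 arrays (horizontal axis), with all genes in grey, the 9 genes as circles (red for called) and the median of all genes in bins of 0.5 as a line. Tmc1, Myo15 and Myo6 lie close to the line, whereas Cdh23 and Pcdh15 lie below it, with differences of -0.63 and -0.72 from genes of the same mean value.

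Of the 9 genes, 6 had groups that did not overlap, Cdh23, Pcdh15, Ush1c, Myo6, Tmc1 and Myo15, against 64.9% of all genes.

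At the limit of 0.14, Cdh23 and Pcdh15 were called lower in every fit that included them, with log2 changes from -0.68 to -0.54 for Cdh23 and from -0.84 to -0.64 for Pcdh15. At the stricter limit of 0.05 some of these calls were lost when an array was left out. The limma adjusted p of Cdh23 was above 0.05 in each fit without 1 array, at 0.069 and 0.056 when N-myc ko replicate 1 or 2 was left out, and at 0.055 and 0.074 when wild-type replicate 1 or 2 was. That of Pcdh15 was above it without wild-type replicate 1 (0.067) and without N-myc ko replicate 1 (0.079), and below it without wild-type replicate 2 (0.0493) and without N-myc ko replicate 2 (0.0332). After quantile normalisation, where 20.2% of all genes were called, the called members were Cdh23 and Pcdh15, and after cyclic loess, where 20.8% of all genes were called, they were the same 2. With 2 arrays against 2, an exact permutation test of a single gene cannot give a two-sided p below 0.333, so the calls rest on the spread that limma shares across genes.

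**Figure D4:**
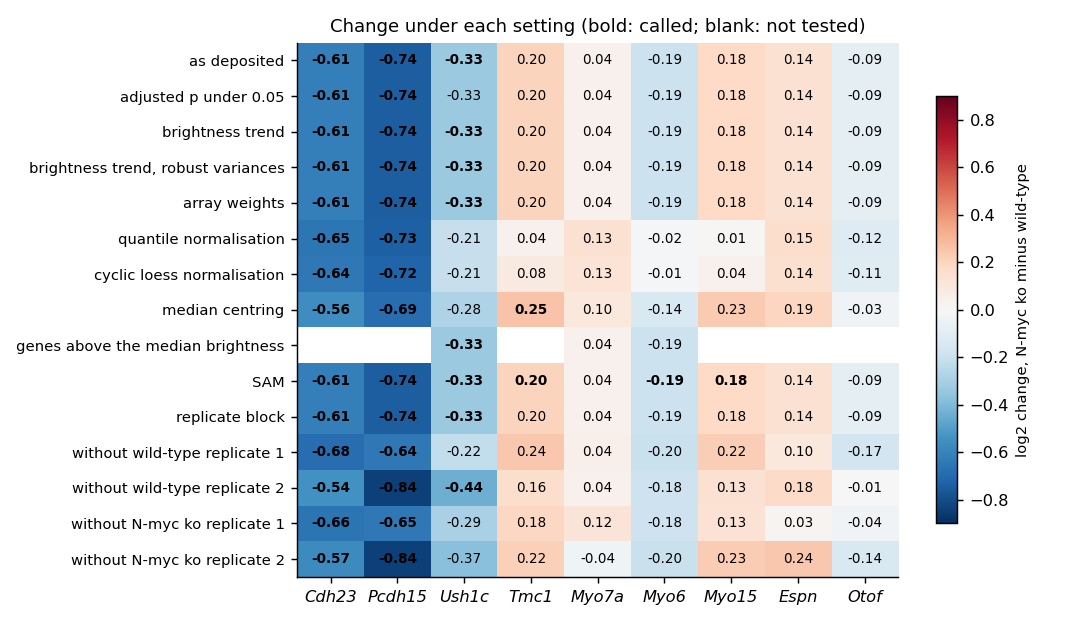
Log2 change (N-myc ko minus wild-type; numbers and colour) of each gene (columns) under each setting (rows), in bold where the gene was called; genes not tested under a setting are blank. Cdh23 and Pcdh15 are between -0.84 and -0.54 and called in every row that tests them, while the Ush1c call comes and goes and the small changes of Tmc1, Myo6 and Myo15 shrink to between -0.020 and 0.077 under quantile and cyclic loess normalisation.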

How the data were processed

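The deposited table holds log2 expression values, which the authors made with RMA (background correction, normalisation within and between arrays, 1 value per gene) per the series' design text, using the affy package per the submitters' processing notes. The sources used here name no version, array design, probe assignment or batch, and scanner files were not used. The values run from 3.63 to 14.3.

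All 23879 genes and 4 arrays were fitted in R 4.3.3 with limma 3.58.1 (eBayes with no trend, two-sided, N-myc ko minus wild-type, Benjamini-Hochberg over all genes; 2 residual and 4.33 prior degrees of freedom). Precision is limited by the number of arrays. The 9 members and all lists were chosen with earlier results of these data known. All 9 are named, with the symbols given beside their IDs when the list was made; the Ensembl column of the RefSeq gene table is empty, so lists by symbol were not run and the nearest profile was sought among the members. Alternatives were a limit of 0.05, variance trends, array weights, 3 normalisations, bright genes alone, SAM (6 label arrangements), a replicate block and leaving out each array. The scripts were tested on simulated data.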

Additional observations from a re-analysis of the deposited data

How the results depend on the processing

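The 3 members called became 1 among the genes above the median brightness (3 members tested, Ush1c called) and 6 under SAM (false discovery rate at most 14%, 63.6% of all genes called), where Tmc1 and Myo15 were also called higher and Myo6 lower, and ranged from 2 to 3 without 1 array. The 8280 calls over all genes became 4816 under quantile normalisation, 4962 under cyclic loess, 3572 at the limit of 0.05, 4757 among the brighter genes (fewer genes tested) and 15191 under SAM. Leaving out an array gave 3151 calls (N-myc ko replicate 1) to 6559 (N-myc ko replicate 2), with 5150 without wild-type replicate 1 and 4931 without wild-type replicate 2. Myo7a turned to -0.037 without N-myc ko replicate 2 and was called under no setting. No other member changed sign. The Ush1c call was also lost at an adjusted p under 0.05, after cyclic loess (limma adjusted p = 0.295) and after median centring (limma adjusted p = 0.145). The causes of the other differences were not tested. The labels do not say that equal replicate numbers share a litter or day (r of the deviations of same-numbered arrays 0.12). With the replicate block, 8835 genes and the same 3 members were called. Where 1 array is left out, the remaining array of its group is taken to vary like the other group's.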
